A study of Homo sapiens with 15 samples.

Results

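The 6 genes described here, EGR1, EGR2, EGR3, JUN, MYC and ATF3, encode transcription factors of the immediate early class. They were taken by symbol from a table of 11230 rows, and each symbol had 1 row. The table covers 15 polyA RNA libraries of HEK293FT cells, a fast-growing line derived from human embryonic kidney cells, in 5 groups of 3 biological replicates. All cells, controls included, received dCas9-VP64, a catalytically dead Cas9 joined to an activator, together with an MS2-p65-HSF1 activator. They also received 5 guide RNAs by plasmid co-transfection. In 4 groups the guides lay 50 to 450 bp upstream of the start of a TrEx long non-coding RNA, a class expressed transiently while cortical neurons form. The libraries titled trex0108 are labelled as targeting TrEx108 and those titled trex4039 as targeting TrEx4039. The libraries titled trex5008 are labelled as targeting TrEx8168, and those titled trex8168 as targeting TrEx5008; groups are named by title, and this conflict was not settled. The control libraries received non-targeting guides. Puromycin at 2 ug/mL followed at 24 hours and the harvest at 48 hours.

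Immediate early genes are switched on by signals acting on factors already present in the cell, with no need for new protein. Growth factor signals that pass through the ERK kinases act on ternary complex factors and serum response factor at CArG boxes in the EGR and FOS promoters, and the JNK kinases phosphorylate the JUN protein. EGR1, EGR2 and EGR3 are closely related zinc finger factors. JUN is the basic leucine zipper core of the AP-1 complex, MYC is a driver of growth and ribosome production that pairs with MAX, and ATF3 is a stress-induced leucine zipper factor.

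The promoters of EGR1, EGR2 and JUN are shown as windows that hold some of the signal-response motifs searched. ATF3 also has such a window, which is not shown. The EGR2 window was picked for its matches, since the other EGR2 windows held none. The EGR3 and MYC windows were not analysed here, so no contrast between genes that rose and genes that did not rests on them. Each window shown is the 250 bases upstream of a RefSeq start site in GRCh38.p14, 5′ to 3′ on the gene's strand. Capitals mark matches to the CArG box, to TGACG, the core of the cyclic AMP response element, and to TGACATCA, an AP-1-like octamer, on either strand. EGR1 lies at chr5:138465229-138465478 on the plus strand, EGR2 at chr10:62816367-62816616 on the minus strand and JUN at chr1:58784048-58784297 on the minus strand.
EGR1: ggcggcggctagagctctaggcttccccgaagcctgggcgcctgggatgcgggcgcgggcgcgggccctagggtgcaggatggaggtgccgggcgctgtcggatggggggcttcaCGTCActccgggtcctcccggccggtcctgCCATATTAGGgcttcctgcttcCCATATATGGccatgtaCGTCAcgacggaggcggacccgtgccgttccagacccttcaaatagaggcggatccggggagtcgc
EGR2: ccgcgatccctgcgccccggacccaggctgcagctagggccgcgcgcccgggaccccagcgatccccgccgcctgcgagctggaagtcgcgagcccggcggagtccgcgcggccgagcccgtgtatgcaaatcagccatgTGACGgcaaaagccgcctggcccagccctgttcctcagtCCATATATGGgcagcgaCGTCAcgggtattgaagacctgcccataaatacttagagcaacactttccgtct
JUN: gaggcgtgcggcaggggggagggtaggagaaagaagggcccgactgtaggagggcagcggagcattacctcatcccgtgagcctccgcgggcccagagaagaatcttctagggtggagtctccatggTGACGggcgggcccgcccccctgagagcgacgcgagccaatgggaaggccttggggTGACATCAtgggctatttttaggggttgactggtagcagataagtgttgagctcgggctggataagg

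The EGR1 window held 2 CArG boxes, starting 105 and 83 bases upstream of the start, and the EGR2 window held 1, at 71 bases. The JUN window held 0 CArG boxes but 1 TGACATCA, at 67 bases, and 1 of the 2 ATF3 windows held TGACATCA at 123 bases. Each of the 3 windows also held TGACG, with 2 matches in EGR1, 2 in EGR2 and 1 in JUN. Among 35116 RefSeq promoter windows of the same length, 1.16% held a CArG box, 2.37% TGACATCA and 21.2% TGACG. EGR2 has 3 such windows in RefSeq, and the other 2, like the 2 of ATF3, held 0 CArG boxes. TGACGTCA and the AP-1 motif TGANTCA, also searched on both strands, had 0 matches in these windows of EGR1, EGR2, JUN and ATF3, against 1.65% and 6.57% of all windows; TGACG is part of TGACGTCA. The EGR family's own motif GCGNGGGCG, found in 8.41% of windows, matched once in EGR1 and in none of the other windows of EGR2, JUN and ATF3. A match is only a run of letters, and these files hold no binding data.

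The file gives the authors' mean normalised count per group, a log2 fold change against control and an adjusted p, without values per library. An SD cannot be given, depth is unknown, and all 4 comparisons share the control libraries. For each of the 9 called values of the 6 genes the deposited log2 fold change is closer to 0 than the log2 ratio of the means. Since a raw p is at most the adjusted p, the fold change divided by the normal deviate of the adjusted p gives an upper bound on its standard error, if the p came from a Wald test. That bound is printed here as the error; it is loose where the adjusted p is near 1. Rows with no adjusted p under 0.1 are not part of the table, so it is not a genome-wide background. A gene counts as called at an adjusted p under 0.05. Of 10 markers of HEK293 cells 6 had a row, among them PAX2, LHX1 and CDH2. Of 10 markers of blood, endothelial cells and fibroblasts 2 had a row, COL1A2 and LUM. A row means an adjusted p under 0.1 in some comparison, so these counts do not tell which markers the cells express.

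In trex0108 the 3 EGR genes rose and JUN, MYC and ATF3 were not called. EGR1, the broadly used growth factor responsive member of the family, averaged 1261 in trex0108, 556.3 in trex4039, 805.8 in trex5008 and 814.6 in trex8168, against 587.2 normalised counts in control. The trex0108 mean was thus 2.15 times that of control, and those of trex5008 and trex8168 were 1.37 and 1.39 times. By the authors' deposited table, EGR1 had a log2 fold change of 0.98 in trex0108, with a standard error of at most 0.097 and an adjusted p of 8.64e-24. By size this was place 104 among the 634 rows called higher there, which are 5.65% of the 11230 rows tested. The rows called in either direction there are 5.89%, and those called lower 0.249%. EGR1 lies on chromosome 5 (137799970 to 137811438, hg19).

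EGR2, the family member known from hindbrain segments and myelinating Schwann cells, averaged 155.4 in trex0108, 74.5 in trex4039, 68.1 in trex5008 and 73.9 in trex8168, against 95.03 normalised counts in control. It stood high in trex0108 and below control in the other 3 target groups. The authors' deposited table gives EGR2 a log2 fold change of 0.50 in trex0108, with a standard error of at most 0.19 and an adjusted p of 0.00876. In trex4039, trex5008 and trex8168 its deposited log2 fold changes were -0.23, -0.31 and -0.24, and the authors' deposited table lists adjusted p of 0.194, 0.0646 and 0.255, so none was called. The EGR2 row spans 110100 bp of chromosome 10 (64569551 to 64679650, hg19) and overlaps the row of ADO, a thiol dioxygenase gene with a mean of 1505 over all libraries. Whether the counting used strand is not given in these sources, so reads where both rows overlap may be shared between EGR2 and ADO. ADO had a log2 fold change of 0.08 in trex0108, at an adjusted p of 0.98, per the authors' deposited table.

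EGR3, the family member known from muscle spindles and lymphocytes, averaged 294.2 in trex0108, 208.3 in trex4039, 219.9 in trex5008 and 182.1 in trex8168, against 209.5 normalised counts in control. Only the trex0108 mean stood apart from control by the deposited test. EGR3 has a row only through this comparison, since its other adjusted p were not under 0.1. Some difference from control was thus required for it to be listed. By the authors' deposited table, the log2 fold change of EGR3 in trex0108 was 0.40, with a standard error of at most 0.17 and an adjusted p of 0.0201. The other 3 comparisons of EGR3 had log2 fold changes of -0.01, 0.05 and -0.15 in trex4039, trex5008 and trex8168, and adjusted p from 0.415 to 0.972, per the authors' deposited table. The EGR3 row lies on chromosome 8 (22542726 to 22550991, hg19).

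**Figure D1:**
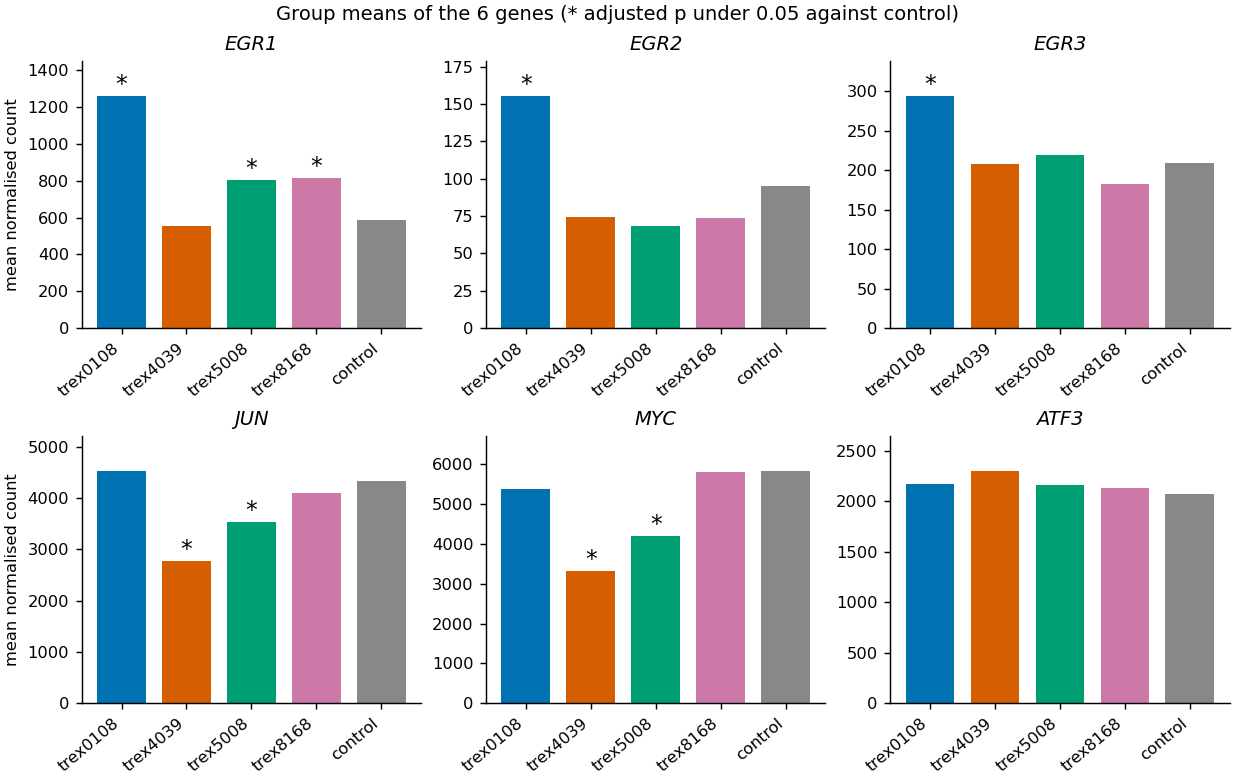
Mean normalised counts of each gene in the 5 groups, with the 4 target groups left of control and 1 bar per group of 3 libraries; the vertical axes start at 0 and differ between genes, and no spread is available. EGR1, EGR2 and EGR3 are highest in trex0108 (1261, 155.4 and 294.2), while MYC and JUN are lowest in trex4039 (3323 and 2766).

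EGR1 was also higher in trex5008 and trex8168, where EGR2 and EGR3 were not called. Its log2 fold changes, per the authors' deposited table, were 0.40 in trex5008 and 0.41 in trex8168, with adjusted p of 1.52e-04 and 5.36e-04. The standard errors were at most 0.11 and 0.12. In trex8168 EGR1 was the 1 gene of the 6 that was called, where 14.6% of 10718 rows were called higher, 6.45% lower and 21.0% in either direction. In trex5008 29.8% of 10589 rows were called higher and 54.1% in either direction, and EGR1 took place 86 of 3151 by size. In trex4039 EGR1 had a log2 fold change of -0.07, at an adjusted p of 0.676, per the authors' deposited table.

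In trex4039 and trex5008 MYC and JUN fell, among many other rows. In trex4039 70.7% of 11195 rows were called, 37.1% higher and 33.7% lower. MYC averaged 5376 in trex0108, 3323 in trex4039, 4209 in trex5008 and 5805 in trex8168, against 5835 normalised counts in control. In percent of control MYC stood at 57.0% in trex4039 and 72.1% in trex5008, and at 92.1% and 99.5% in trex0108 and trex8168. The authors' deposited table gives MYC a log2 fold change of -0.77 in trex4039, with a standard error of at most 0.064 and an adjusted p of 4.75e-33. In trex5008 the deposited value for MYC was -0.45, with a standard error of at most 0.068 and an adjusted p of 5.01e-11, per the authors' deposited table. By size this was place 101 of the 3768 rows called lower in trex4039, and place 258 of the 2574 called lower in trex5008, which are 24.3%. In trex0108 and trex8168 the log2 fold changes of MYC were -0.11 and -0.01, per the authors' deposited table, with adjusted p of 0.717 and 0.96. The MYC row lies on chromosome 8 (128746546 to 128756221, hg19).

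JUN averaged 4529 in trex0108, 2766 in trex4039, 3535 in trex5008 and 4103 in trex8168, against 4332 normalised counts in control. Its trex4039 mean was 63.8% and its trex5008 mean 81.6% of control, so the order of the groups at the low end was that of MYC. By the authors' deposited table, JUN had a log2 fold change of -0.59 in trex4039, with a standard error of at most 0.086 and an adjusted p of 9.06e-12. The trex5008 value for JUN, per the authors' deposited table, was -0.27, with a standard error of at most 0.094 and an adjusted p of 0.00458. By size JUN held place 359 of 3768 in trex4039 and place 1397 of 2574 in trex5008, past the middle of the falls in trex5008. JUN was not called in trex0108 or trex8168, where the authors' deposited table lists log2 fold changes of 0.06 and -0.07. Its row covers 23970 bp of chromosome 1 (59226638 to 59250607, hg19).

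ATF3 was the flattest of the 6 genes. It averaged 2173 in trex0108, 2302 in trex4039, 2163 in trex5008 and 2136 in trex8168, against 2071 normalised counts in control, so its highest mean was 1.11 times its lowest. By the authors' deposited table, its log2 fold changes were 0.07, 0.14, 0.06 and 0.04 in that order of groups, and the lowest adjusted p was 0.0989, in trex4039. There the standard error was at most 0.087, and the 95% interval with it ran from -0.03 to 0.31 on the log2 scale. The ATF3 row spans 58204 bp of chromosome 1 (212738749 to 212796952, hg19).

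**Figure D2:**
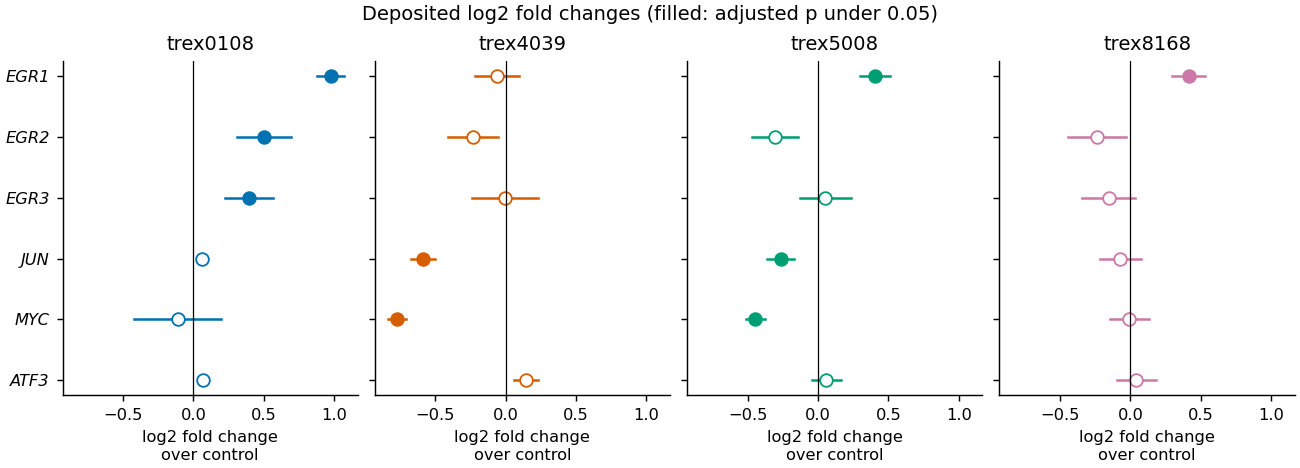
Deposited log2 fold change of each gene over control, 1 panel per target group; filled points have an adjusted p under 0.05, and lines extend 1 upper-bound standard error to each side. No line is drawn for JUN and ATF3 in trex0108, where the adjusted p is near 1 and the bound is too loose; EGR1 stands at 0.98 in trex0108 and MYC at -0.77 in trex4039.

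Falls in trex4039 and trex5008 went with the GC content of the transcripts, and the MYC and JUN values are given with that trend. Over the 6521 rows with a GENCODE transcript, 58.1% of the table, a linear trend on GC content took up 57.7% of the variance of the log2 fold change in trex4039 and 59.1% in trex5008. It took up 1.06% in trex0108 and 5.97% in trex8168. The slope was -0.25 per 10 percentage points of GC in trex4039 and -0.19 in trex5008 on the log2 scale. The transcripts of the 6 genes had 50.8% (ATF3) to 56.7% GC (JUN), against a median of 47.8% over these rows. MYC, at 53.9% GC, stood at -0.68 in trex4039 and -0.37 in trex5008 with the trend subtracted. For JUN the values were then -0.43 in trex4039 and -0.14 in trex5008, so the deposited trex5008 value of -0.27 shrank by more than 1.5 times. EGR1 stood at 0.94 in trex0108, 0.51 in trex5008 and 0.41 in trex8168 without the trend, and EGR2 and EGR3 at 0.46 and 0.36 in trex0108. What gives rise to the trend was not tested.

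**Figure D3:**
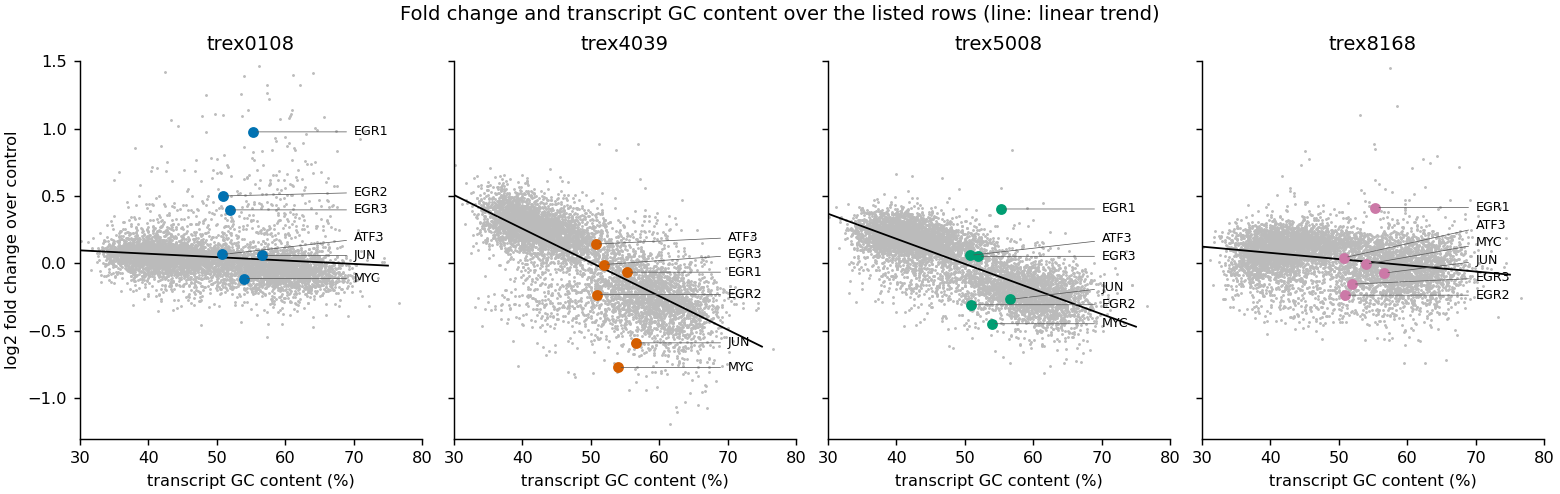
Deposited log2 fold change over control against transcript GC content in percent, 1 panel per target group; grey points are 6521 rows, coloured points the 6 genes and lines the linear trends. Rows beyond the axis limits are not drawn. In trex4039 MYC and JUN lie below a falling trend, while in trex0108 the 3 EGR genes lie above a nearly flat one.

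Whether the groups differ from each other was tested directly for 6 pairs of target groups, which is 36 comparisons over the 6 genes. The difference of 2 log2 fold changes was set against the upper bounds on both standard errors, with the covariance from the shared control taken as 0, a two-sided p and Benjamini-Hochberg adjustment over all rows of the pair. This makes p too large rather than too small, and 5 of 36 passed an adjusted p of 0.05. The rows were listed because they were called somewhere, so they are not an unselected set. EGR1 was higher in trex0108 than in each other target group. The differences were 1.04 over trex4039, 0.57 over trex5008 and 0.56 over trex8168, with adjusted p of at most 1.47e-06, 0.00379 and 0.0206 by this normal test. Among all rows, 2.39%, 2.34% and 1.55% passed in these pairs.

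MYC and JUN were lower in trex4039 than in trex8168. The difference was -0.76 for MYC, with an adjusted p of at most 1.42e-04, and -0.52 for JUN, with an adjusted p of at most 0.0356, in a pair where 8.83% of rows passed. Between trex4039 and trex5008, the 2 groups in which both genes fell, MYC differed by -0.32 with an adjusted p of at most 0.105 and JUN by -0.32 with at most 0.437, and 0.274% of rows passed. In the pair of trex5008 and trex8168 0.510% of rows passed and none of the 6 genes did; EGR1 differed by -0.01 there.

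Because the bound is loose near an adjusted p of 1, the smallest bound of each gene was also used for all of its comparisons, a choice made after the data were seen, which assumes a like error in each. With it 12 of 36 passed. The 7 added were EGR2 in trex0108 over trex4039 and trex5008 (0.73 and 0.81), JUN in trex0108 over trex4039 (0.65), MYC in trex0108 over trex4039 and trex5008 (0.66 and 0.34), MYC in trex5008 under trex8168 (-0.44) and EGR1 in trex4039 under trex8168 (-0.48). The shares of all rows that passed were then 30.2%, 9.73% and 3.31% for trex0108 against trex4039, trex5008 and trex8168. For trex4039 they were 0.463% against trex5008 and 24.1% against trex8168, and for trex5008 against trex8168 5.27%. EGR3 and ATF3 passed in 0 of their 6 pairs under both choices. For EGR3 in trex0108 over trex8168 the difference was 0.55 with an interval of 0.08 to 1.02, and for ATF3 in trex0108 over trex4039 it was -0.08 with -0.32 to 0.16, before adjustment and with the smallest bound.

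**Figure D4:**
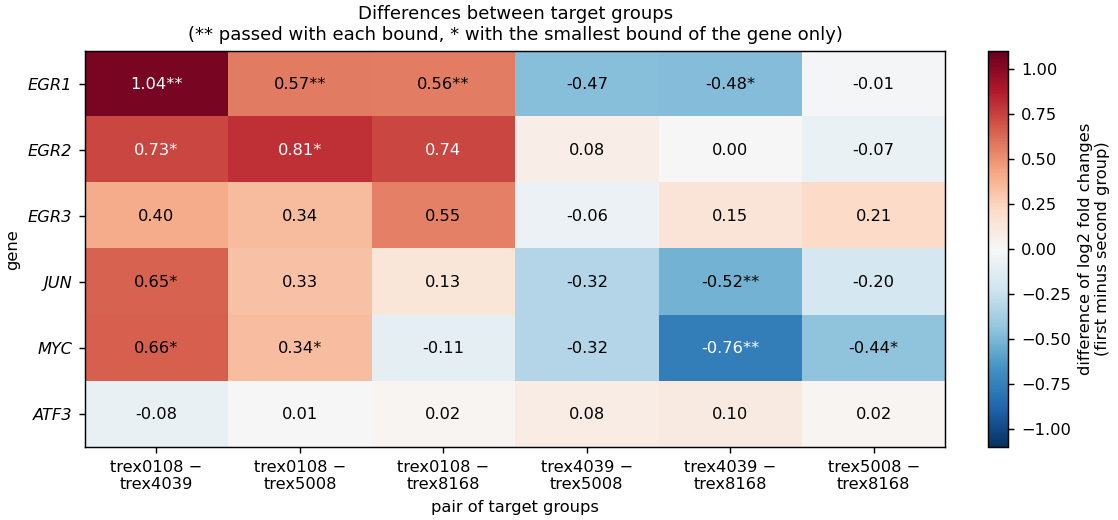
Differences of the deposited log2 fold changes between target groups (first minus second group) for the 6 genes; red is higher and blue lower in the first group, 2 stars mark pairs that passed with the bound of each comparison and 1 star those that passed with the smallest bound of the gene only. EGR1 and EGR2 are red in the 3 columns of trex0108, while MYC and JUN are blue in trex4039 against trex8168 (-0.76 and -0.52).

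The order of the EGR1 means was trex0108, trex8168, trex5008, control and trex4039. In this order trex0108 differed from trex8168 and trex5008 from control, while trex8168 and trex5008, and control and trex4039, did not differ beyond their error. For EGR2 trex0108 was followed by control, trex4039, trex8168 and trex5008, and the call lay between the first 2. For EGR3 the order was trex0108, trex5008, control, trex4039 and trex8168, and no adjoining groups differed beyond their error. JUN ran from trex0108 through control, trex8168 and trex5008 to trex4039, and MYC from control through trex8168, trex0108 and trex5008 to trex4039. Of the adjoining groups of JUN, trex4039 and trex5008 passed with a covariance of 0.5 alone. Of those of MYC, trex0108 and trex5008 did not pass with the bound of each comparison, but passed with the smallest bound and with the standard error from rank. The MYC pair of trex4039 and trex5008 passed with the standard error from rank and with a covariance of 0.5. ATF3 ran from trex4039 through trex0108, trex5008 and trex8168 to control, and no adjoining groups passed.

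Other immediate early genes were called in part. Of 29 genes of this list 15 had a row, and MCL1 had 2, which gives 16 rows; FOS, JUNB and IER2 are among those not analysed here. In trex0108, where 5.65% of all rows were called higher and 0.249% lower, 3 rows of the list rose and 0 fell. These were ARC, a synaptic plasticity gene, with 429.0 in trex0108 against 305.5 normalised counts in control, the TGF-beta inducible factor KLF10, with 1449 against 1075, and the stress phosphatase subunit PPP1R15A, with 4118 against 3300. Their log2 fold changes, per the authors' deposited table, were 0.43, 0.39 and 0.30, with adjusted p of 6.18e-04, 6.93e-05 and 1.05e-04. The median over the list was 0.05, against 0.02 over all listed rows.

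In trex4039 4 of the 16 rows of that list rose and 4 fell, where 70.7% of all rows were called, and the median was -0.02 against 0.03 over all rows. The falls include both MCL1 rows, with means of 67.8 and 6.22 over all libraries, so they cover fewer genes than rows. CYR61 and CTGF, matricellular proteins, rose with log2 fold changes of 0.47 and 0.44, per the authors' deposited table, with adjusted p of 2.63e-11 and 2.47e-06. The orphan nuclear receptor NR4A1 fell to 1085 in trex4039, against 1538 in control. In trex5008 0 of 15 rose and 6 fell, where 54.1% of all rows were called, with a median of -0.14 against 0.02 over all rows. Named among them are ZFP36, an mRNA-destabilising protein, NR4A1, the antiproliferative gene BTG2 and the AP-1 subunit FOSB, with log2 fold changes of -0.50, -0.38, -0.26 and -0.24, per the authors' deposited table. Their adjusted p there were 1.94e-05, 2.98e-07, 0.0023 and 0.029. In trex8168 0 of 15 rows with an adjusted p were called, where 21.0% of all rows were, and the median was -0.07 against 0.04.

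Components of the pathway upstream of the EGR genes were not called in trex0108, where 0 of 10 listed rows of the SRF and ERK list rose or fell and 5.89% of all rows were called. In trex4039 5 rose and 2 fell, a share near the 70.7% of all rows, led by the ERK phosphatase gene DUSP6, with 171.8 in trex4039 against 119.3 in control and a log2 fold change of 0.41, per the authors' deposited table. NAB2, a corepressor that binds EGR proteins, fell in trex4039 and trex5008, with log2 fold changes of -0.28 and -0.31 and adjusted p of 0.00227 and 6.70e-04, per the authors' deposited table. In trex0108, where the EGR genes rose, NAB2 had -0.13 and was not called, per the authors' deposited table. In trex5008 1 row of the list rose and 2 fell, where 54.1% of all rows were called. In trex8168 1 rose and 0 fell, where 21.0% of all rows were called. The medians of the list were -0.03, 0.17, -0.07 and 0.03 in trex0108, trex4039, trex5008 and trex8168.

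For JUN, the list of JNK kinases and AP-1 partners held 7 rows. JDP2, a leucine zipper repressor that pairs with JUN, rose to 512.3 in trex0108, against 294.3 normalised counts in control. Its log2 fold change, per the authors' deposited table, was 0.73, with an adjusted p of 5.56e-16. It was the 1 call of the list in trex0108, where 5.89% of all rows were called. In trex4039, where JUN fell and 70.7% of all rows were called, 2 rows of the list rose and 3 fell. The risen ones were the JNK1 gene MAPK8 and its kinase gene MAP2K4, with 0.39 and 0.36, per the authors' deposited table; the fallen ones were BATF3, MAP2K7 and a row named FBXW7 with a mean of 13.3 over all libraries. In trex5008 2 rose, again MAP2K4 and MAPK8, and 2 fell, FOSB and MAP2K7, where 54.1% of all rows were called. In trex8168 MAP2K4 rose and BATF3 fell, where 21.0% of all rows were called. The medians of the list were 0.06, -0.18, -0.12 and -0.02 from trex0108 to trex8168.

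Around MYC, calls of partners and of textbook targets went both ways. Of 6 rows of the MYC network 1 rose and 4 fell in trex4039, 1 rose and 2 fell in trex5008, and 0 rose and 1 fell in trex8168, while 0 were called in trex0108. Over all rows 70.7%, 54.1%, 21.0% and 5.89% were called in these groups, in that order, so the counts lie near those shares. The falls in trex4039 include FBXW7 and a USP28 row, with means of 13.3 and 28.1 over all libraries. Another USP28 row, with a mean of 2550, had 0.07 there and was not called, per the authors' deposited table. The glucose-responsive factor MLXIPL led the falls in 3 comparisons, with log2 fold changes of -0.82, -0.64 and -0.47 in trex4039, trex5008 and trex8168, per the authors' deposited table. ZBTB17, through which MYC represses genes, fell with -0.23 and -0.17 in trex4039 and trex5008, and the MYC antagonist MXI1 rose with 0.22 and 0.24 there, per the authors' deposited table. The medians were -0.13, -0.32, -0.17 and -0.16 from trex0108 to trex8168.

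Of 26 MYC target genes 9 had a row. In trex4039 3 rose and 4 fell, and in trex5008 4 rose and 0 fell. These shares of calls lie near the 70.7% and 54.1% of all rows. BOP1, a ribosome assembly factor, and the cyclin gene CCND2 fell in trex4039 with -0.36 and -0.24, while PPAT, of purine synthesis, and the nucleolar protein gene NPM1 rose with 0.23 and 0.20, per the authors' deposited table. In trex5008 NPM1, PPAT, the chaperonin gene HSPD1 and the polyamine enzyme gene ODC1 rose, from 0.24 down to 0.14, per the authors' deposited table. In trex8168, where MYC was not called, SRM, ODC1 and BOP1 rose with 0.24, 0.22 and 0.16, per the authors' deposited table. There 14.6% of all rows were called higher. The median of the list was 0.07, -0.13, 0.14 and 0.14 from trex0108 to trex8168, against 0.02, 0.03, 0.02 and 0.04 over all listed rows.

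For ATF3, 7 genes of the ATF4-centred stress response had a row; ATF4 and DDIT3 are among those not analysed here. ATF5 and PPP1R15A, which also stands in the immediate early list, rose in trex0108 with 0.37 and 0.30, per the authors' deposited table, and 0 fell. In trex4039 0 rose and 2 fell. The mTOR inhibitor gene DDIT4 fell to 570.0 in trex4039, 892.7 in trex5008 and 1116 in trex8168, against 1786 normalised counts in control, with log2 fold changes of -0.94, -0.60 and -0.41, per the authors' deposited table. In trex5008 VLDLR rose and DDIT4 and SESN2 fell. In trex8168 VLDLR, PHGDH and XBP1 rose and DDIT4 fell. Over all rows 5.89%, 70.7%, 54.1% and 21.0% were called in trex0108, trex4039, trex5008 and trex8168. The medians of this list were 0.06, -0.01, -0.09 and 0.10 in the same order.

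**Figure D5:**
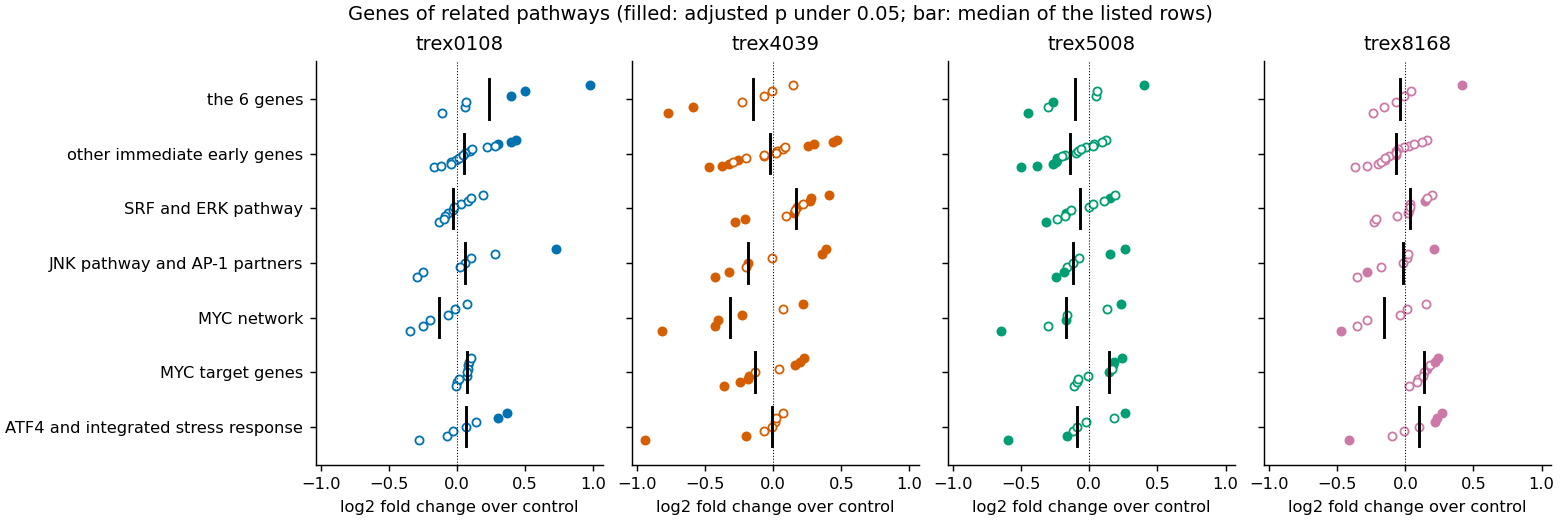
Deposited log2 fold changes over control of the 6 genes and of the listed rows of 6 related gene lists, 1 panel per target group; filled points have an adjusted p under 0.05 and black bars are medians. In trex0108 the calls are all rises, led by EGR1 at 0.98 and JDP2 at 0.73. Of all rows 5.65% were called higher and 0.249% lower there. In trex4039 most lists have calls in both directions.

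Listed HEK293 markers were called at shares near those of all rows in trex4039 and trex5008, which were 70.7% and 54.1%. In trex4039 1 of 6 listed markers rose and 3 fell, with log2 fold changes from -0.54 for the neurofilament gene NEFM to 0.31 for the cadherin gene CDH2, per the authors' deposited table. In trex5008 1 rose and 3 fell, from -0.33 for PAX2 to 0.18 for CDH2, per the authors' deposited table. In trex0108, beside the EGR rises, 0 of 6 were called, and in trex8168 1 rose and 1 fell. The shares of all rows called there were 5.89% and 21.0%. Of the 2 listed markers of other cell types, LUM rose to 293.7 in trex4039, against 205.8 in control, and COL1A2 fell to 2.81, against 26.0; neither was called in the other comparisons, and COL1A2 has no adjusted p in trex5008. Their part in the results was not tested. In these bulk libraries a change in the kinds of cells and a change in RNA per cell cannot be told apart.

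Listed rows within 100 kb of each gene were also read. None of the 13 neighbours of the 6 genes was called in trex0108, where 5.89% of all rows were called. Near MYC 3 rows were listed and all 3 fell in trex4039, where MYC fell and 33.7% of all rows were called lower: XLOC_062428, which starts 49932 bp beyond the MYC row, and CATG00000100840.1 and CATG00000104061.1, which lie within the span of XLOC_062428. Their log2 fold changes were -0.61, -0.47 and -0.77 in trex4039, per the authors' deposited table. In trex5008, where MYC also fell, none of the 3 was called, and in trex8168, where MYC was not called, XLOC_062428 and CATG00000104061.1 fell with -0.33 and -0.60, per the authors' deposited table. Of all rows 24.3% were called lower in trex5008 and 6.45% in trex8168. Near JUN 1 of 2 rows was called, MYSM1 in trex8168, with -0.33, per the authors' deposited table. Near EGR1, which rose in trex5008 and trex8168, 2 of 4 rows rose in trex5008 and 1 rose in trex8168. Of all rows 29.8% and 14.6% were called higher there. In trex4039 2 of the 4 rose and 1 fell, where 37.1% of all rows were called higher and 33.7% lower. Whether the counts near EGR1 depart from these shares was not tested. By the authors' deposited table ETF1, a translation release factor gene, had 0.31 in trex4039 and 0.17 in trex5008, XLOC_052897 had 0.14 in trex5008, and XLOC_050906 had 0.12 in both trex4039 and trex8168.

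The genes most like each of the 6 were sought among 5978 named protein-coding rows with a mean of at least 50, by the root mean square difference of the deposited log2 fold changes over the 4 comparisons. For EGR1 the closest were APOC1, RGS10 and PLXNC1, at 0.24, 0.26 and 0.26 on the log2 scale. The apolipoprotein gene APOC1 rose in trex0108 with 0.76 and RGS10, a regulator of G-protein signalling, with 1.02, per the authors' deposited table, but neither was called in trex5008 or trex8168, where EGR1 was. PLXNC1 had 0.77 in trex0108, 0.11 in trex5008 and 0.36 in trex8168 by the authors' deposited table, and was called in trex0108 and trex8168. EGR2 was nearest to KIAA1217, CYP2S1 and COL16A1, at 0.06, 0.07 and 0.08. EGR3 lay close to SGCZ and ALX1, at 0.04 and 0.06. JUN had PIAS4, SLC37A4 and MAST1 at 0.03, 0.04 and 0.04, and MYC had EFEMP2, LTBP3 and CHTF18 at 0.06 each. ATF3, with small values throughout, had FAF2, JAK1 and KHDRBS1 at 0.01 each.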

How the data were processed

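The deposited table gives 15 polyA RNA libraries of HEK293FT cells as group summaries. The submitters' processing notes name DESeq2 1.14.1, DESeq, Cufflinks, STAR 2.5.1b, Bowtie2 2.2.1 and bedtools, and the builds hg19 and GRCh37, without saying which step used which. The deposited signal columns are, per the file headers, mean normalised counts. The log2 columns deposited hold fold changes of a target group over control. The deposited p-value columns hold adjusted values, and the deposited call column marks those under 0.1, with 0 mismatches. Counts per library were not used here, so no count model was fitted, depth is unknown, and no replicate could be left out. The deposited p-values set a fold change against the spread among the replicates the authors tested, and do not themselves measure that spread.

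Calls at 0.05 were counted as deposited. Pair differences, error bounds and GC trends were computed with Python 3.11.15, scipy 1.17.1 and pandas 2.3.3, and the pair test was tested on simulated data. GC content is that of the longest GENCODE 29 transcript per symbol, protein-coding where there is one. Start coordinates, counted from 0 in the file, were raised by 1. Sequences come from RefSeq (GRCh38.p14), matched by symbol; EGR1, EGR2, JUN and ATF3 were used. The 6 genes and all lists were chosen with earlier results of these data known. Named genes are the 6, up to 4 called genes per list and comparison with the largest change, and 3 nearest in pattern per gene. Named outside that rule, after values were seen, were neighbours, ADO, NAB2 in trex0108, MXI1 in trex4039, the markers and MAP2K7 in trex4039. So were the larger USP28 row and the smaller MCL1 row in trex4039, and genes named as having no row. Genes that the rule names but the text does not are not reported here.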

Additional observations from a re-analysis of the deposited data

Results flagged for a closer look

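A direct test found differences between target groups for 3 of the 6 genes, in 5 of 36 comparisons. EGR1 was higher in trex0108 than in trex4039, trex5008 and trex8168, by 1.04, 0.57 and 0.56 on the log2 scale. Of all rows 2.39%, 2.34% and 1.55% passed in these pairs. MYC and JUN were lower in trex4039 than in trex8168, with differences of -0.76 and -0.52, in a pair where 8.83% of all rows passed.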

How the results depend on the processing

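The number of the 6 genes called stayed within 1.5 times at adjusted p under 0.01 or 0.1 and among rows with a mean of at least 50, in each of the 4 comparisons. The count of 5 pair differences was not stable. It was 13 with a covariance of 0.5, 13 with the standard error taken from rank, 12 with the smallest bound of each gene and 3 at an adjusted p under 0.01. The bound is loose where the adjusted p is near 1, and each of the first 3 settings uses smaller errors. No called log2 fold change of the 6 genes changed sign under the pseudocounts of 1 and 10, the centring on the median or the GC trend; EGR1 and EGR3 in trex4039, neither of which was called, stood at 0.06 and 0.03 without the trend, against -0.07 and -0.01 as deposited. Leaving out replicates was not run. No paired analysis was possible because the columns are group means and carry no replicate numbers.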
